A study of Mus musculus with 6 samples.

Results

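Regulatory T cells that express Foxp3 were described across 6 single-cell RNA libraries of immune cells from mouse colon tumours. The cells were chosen by their own counts of unique molecular identifiers (UMIs, the count of distinct captured transcripts). A barcode was taken when it had at least 200 genes, at most 10% of its UMIs from mitochondrial genes, at least 1 UMI of Cd3d, Cd3e or Cd3g and at least 1 of Foxp3. It also had to have 0 UMIs of Cd8a, Cd8b1, Trdc, Csf1r and Cd79a. This selected 724 regulatory T cells (Tregs) of 33862 barcodes that passed the gene and mitochondrial filters, or 2.14%. The 9 genes of this rule, and Cd4, which chose the comparison cells below, are therefore given only as a description. They were left out of the tests against those comparison cells. The genotype and time tests within Tregs kept those with enough counts, Foxp3 and Cd4 among them. The labels name 2 genotypes: Control, and SOX17KO, in which SOX17, a transcription factor, is lost. Each was collected in 3 pairs of 1 Control and 1 SOX17KO library: a pair with no time in its labels (called untimed here), a pair labelled 1 week and a pair labelled 2 weeks. Tumours of 5 mice were pooled per condition according to the series description; whether it held for each collection could not be read from them. The sort kept cells that excluded the viability dye 7-AAD, lacked the epithelial antigen EpCAM and carried the leukocyte antigen CD45. The alleles, the cells that carry the SOX17 loss, the starting point of the weeks, and the strain and age of the mice were not given in the sources used here. Sox17 itself could not check the genotype labels in cells sorted as EpCAM-negative, since it had 3 to 20 UMIs per library and 55 in all.

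Tregs are CD4 T cells that restrain other immune cells. The transcription factor Foxp3 sets their identity. They consume interleukin-2 through a receptor that contains Il2ra, occupy costimulatory ligands through Ctla4, and release inhibitory cytokines such as Il10. In the colon they include thymus-derived cells, commonly marked by the transcription factor Ikzf2 (Helios), and cells with Gata3 and the interleukin-33 receptor Il1rl1 that are linked to tissue repair. In tumours, Tregs are known for limiting the response of effector T cells.

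The libraries differed in ways that touch the Tregs. They held 3163 to 7495 barcodes and 18281322 to 52150180 UMIs each. Of the 127 barcodes present in more than 1 library, 6 belonged to a Treg, and none was a Treg in both. The Control untimed library held 467 of the Tregs, or 64.5%, and the other 5 libraries 257. Barcodes with a Cd3 UMI and no Trdc, Csf1r or Cd79a UMI, called Cd3 barcodes, were 57.5% of the Control untimed and 71.9% of the SOX17KO untimed library, 2.15% of both 1-week libraries, and 45.8% and 26.4% of the Control and SOX17KO 2-week libraries. Levels are given as CPM, the UMIs of a gene per 1000000 UMIs of the summed class. Gm42418, a locus that overlaps a ribosomal RNA repeat, separated the collections in Tregs. It took 55167 and 32098 CPM in Control and SOX17KO of the untimed pair, 16129 and 20291 in the 1-week pair, and 9769.6 and 11952 in the 2-week pair. Where a result below runs along the collections, the part played by this shift was not tested.

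The Tregs matched their label by markers that the rule did not use. Most had few Foxp3 transcripts. Of the 724, 351 (48.5%) stood just inside the threshold with 1 Foxp3 UMI, 166 had 2, 94 had 3 and 113 had 4 or more, up to 10. Just outside it were 1685 barcodes with a Cd4 UMI, 0 Foxp3 UMIs and otherwise the same conditions, called Foxp3-negative CD4 T cells here. Foxp3 lies on the X chromosome (GRCm38 chrX:7573644-7595245, plus strand, from the GENCODE annotation). It was read in 3 of 797 B cells, a class that should lack it, chosen by a Cd79a UMI and 0 UMIs of Cd3 genes and Csf1r. After each barcode was thinned to 1000 UMIs, to compare cells at equal depth, Ikzf2 was present in 87.4% of 708 Tregs and 1.17% of 768 B cells, Ctla4 in 70.3% and 2.21%, and Il2ra in 48.0% and 0.651%. The cells left out by the thinning, those under 1000 UMIs, were 14 in the untimed Control and 2 in the Control 2-week library. The Cd4 transcript itself, not required by the rule, was read in 57.8% and 27.6% of untimed, 53.8% and 62.1% of 1-week, and 48.7% and 64.3% of 2-week Control and SOX17KO Tregs. The negative conditions removed many barcodes that had both Cd3 and Foxp3 UMIs. Of 1445 such barcodes, 519 had a Cd8a or Cd8b1 UMI, 217 a Csf1r, 74 a Trdc and 41 a Cd79a UMI. Some were counted under several. The libraries differed in this. Csf1r UMIs marked 58 of 85 Control and 49 of 79 SOX17KO barcodes of this kind at 1 week. Untimed libraries had 65 of 972 and 8 of 76, and 2-week libraries 18 of 152 and 19 of 81. Cd8a or Cd8b1 UMIs marked 0 and 2 of the 1-week, 443 and 46 of the untimed and 19 and 9 of the 2-week barcodes. How far this shaped the Treg shares below was not tested.

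Some Tregs carried transcripts of other lineages. Barcodes with 1% or more of their UMIs in lists for myeloid cells, neutrophils, dendritic cells, B and plasma cells or epithelium and stroma are called mixed. They were 47 of the 724 (6.49%): 22 and 1 in the untimed Control and SOX17KO libraries, 5 and 5 at 1 week, and 9 and 5 at 2 weeks. Mixed barcodes had more UMIs, with a median of 11204 against 4647 for the others in the untimed Control library, and 18 of the 47 were in the share removed by a doublet score. Results across genes are therefore given for all Tregs and again with the mixed barcodes left out, an alternative chosen after the data were seen.

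The first comparison asked how large a share the Tregs took in each library. They were far more frequent in the untimed Control library than in its SOX17KO partner, while the 1-week and 2-week pairs were close. In the untimed pair Tregs were 6.78% of Control barcodes (467 of 6883, exact Clopper-Pearson 95% interval 6.20 to 7.40) and 0.454% of SOX17KO barcodes (29 of 6382, 0.305 to 0.652), 14.9-fold apart. At 1 week they were 0.473% (26 of 5492, 0.309 to 0.693) and 0.397% (29 of 7309, 0.266 to 0.569). At 2 weeks they were 2.45% (117 of 4783, 2.03 to 2.92) and 1.86% (56 of 3013, 1.41 to 2.41). The SOX17KO library was the lower one in all 3 pairs, but the intervals of Control and SOX17KO overlapped at 1 and 2 weeks. The log2 odds difference, SOX17KO minus Control, turned to 0.01 at 2 weeks when a Cd4 UMI was required and to 0.21 at 1 week with barcodes thinned before the rule (exact sign-flip permutation p = 0.5 over the 3 pairs in both cases).

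**Figure D1:**
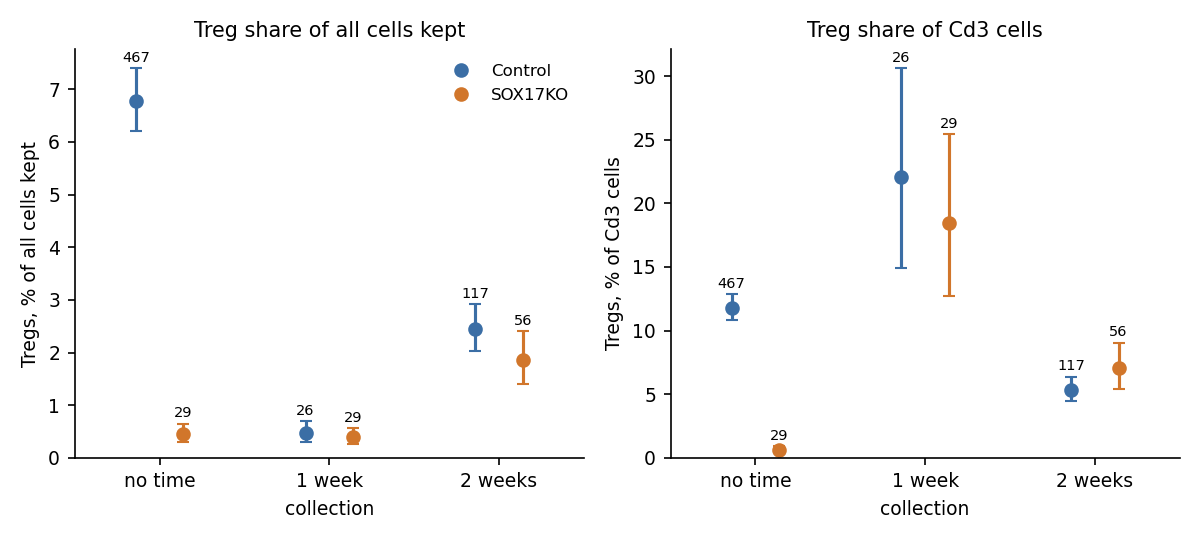
Share of Tregs in each library, in percent, as a share of all barcodes past the filters and of barcodes with a Cd3 UMI. Points are libraries coloured by genotype, bars are exact Clopper-Pearson 95% intervals that cover counting error only, and the number at each point is the Treg count. The untimed Control library stands at 6.78% of all barcodes and every other library at 2.45% or below, while of Cd3 barcodes the 1-week libraries are highest, with 26 of 118 and 29 of 157.

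The order changed among T cells. Of Cd3 barcodes, Tregs were 11.8% (10.8 to 12.8) in the untimed Control and 0.632% (0.424 to 0.906) in the untimed SOX17KO library, 26 of 118 (14.9 to 30.6) and 29 of 157 (18.5%, 12.7 to 25.4) at 1 week, and 5.34% (4.44 to 6.37) and 7.05% (5.37 to 9.06) at 2 weeks. The estimate was lower in SOX17KO in the untimed and 1-week pairs and higher at 2 weeks, with overlapping intervals in the last 2 pairs. The log2 odds difference of Cd3 barcodes was -4.37 (untimed), -0.32 (1 week) and 0.43 (2 weeks), against -3.97, -0.26 and -0.40 over all barcodes. Over the 3 pairs the mean was -1.42 ± 2.58 (SD, n = 3; two-sided exact sign-flip permutation p = 0.75) of Cd3 barcodes and -1.54 ± 2.10 (SD, n = 3; exact sign-flip permutation p = 0.25) of all barcodes. This test cannot give a p below 0.25 with 3 pairs. The untimed pair decided both means: without it they were 0.06 of Cd3 barcodes and -0.33 of all barcodes. Within each pair there is 1 library per genotype, so a difference between libraries and one between genotypes cannot be told apart.

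The next comparison set Tregs against Foxp3-negative CD4 T cells of the same library, the cells most like them, to see which other genes mark the Tregs. Tregs had more of the receptors and transcription factors of Treg identity, more Gzmb, Itgae and Klrg1, and less of the helper cytokines. UMIs were summed per library and class and tested with edgeR's quasi-likelihood test, with the library as a block. Of 8060 genes 495 were called at an adjusted p under 0.05 (217 higher and 278 lower in Tregs), which is 6.14% of the genes tested; with mixed barcodes left out 697 of 6933 were called, 10.1%. The count was 268 without the Control 2-week library and 267 without the SOX17KO 2-week library. Ikzf2 was read in 18.6% to 45.5% of Foxp3-negative barcodes and in 9.58% to 33.3% of Cd8 barcodes at 1000 UMIs per barcode. For Ctla4 these shares were 18.2% to 45.5% and 10.0% to 31.6%, and for Il2ra 13.6% to 31.8% and 0% to 25.4%. In each library the Treg share of these genes was higher, closest for Il2ra in the untimed SOX17KO library (37.9% of Tregs and 25.4% of Cd8 barcodes). How many Foxp3-negative barcodes were Tregs whose Foxp3 transcript was not captured was not tested.

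Of the identity list, 9 of 10 tested genes were higher in Tregs and none was lower by the test, with a median log2 difference of 1.45 against -0.02 over all genes tested. Ikzf2 (chr1:69531214-69687245, minus strand) stood at 3586 and 3919 CPM in untimed Control and SOX17KO Tregs, 3272 and 1780 at 1 week, and 4825 and 4617 at 2 weeks. Foxp3-negative cells had 1498, 315, 861, 754, 511 and 315 CPM in the same order, below the Tregs in every library. The log2 difference was 2.51 (SE 0.34, edgeR adjusted p = 0.00113). Il2ra, the alpha chain of the interleukin-2 receptor, had 628 and 592 CPM in untimed, 1804 and 1714 in 1-week and 1254 and 1333 in 2-week Tregs, and 233 to 775 CPM in the Foxp3-negative cells (log2 difference 1.59, SE 0.17, edgeR adjusted p = 0.000211). Ctla4, the inhibitory receptor, ranged from 1115 to 1955 CPM in Tregs and from 492 to 845 in the comparison cells, with no overlap (1.20, SE 0.11, edgeR adjusted p = 0.000121). Ikzf4, a relative of Ikzf2, was higher by 2.20, Izumo1r (folate receptor 4) by 1.85, and Lrrc32, which holds latent TGF-beta on the surface, by 2.96 on the log2 scale. Tnfrsf4 and Tnfrsf18 (OX40 and GITR), costimulatory receptors of the TNF family, were higher by 1.30 and 0.89. Nrp1, another list member, went the other way without passing the test (-0.71, SE 0.27, edgeR adjusted p = 0.175).

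**Figure D2:**
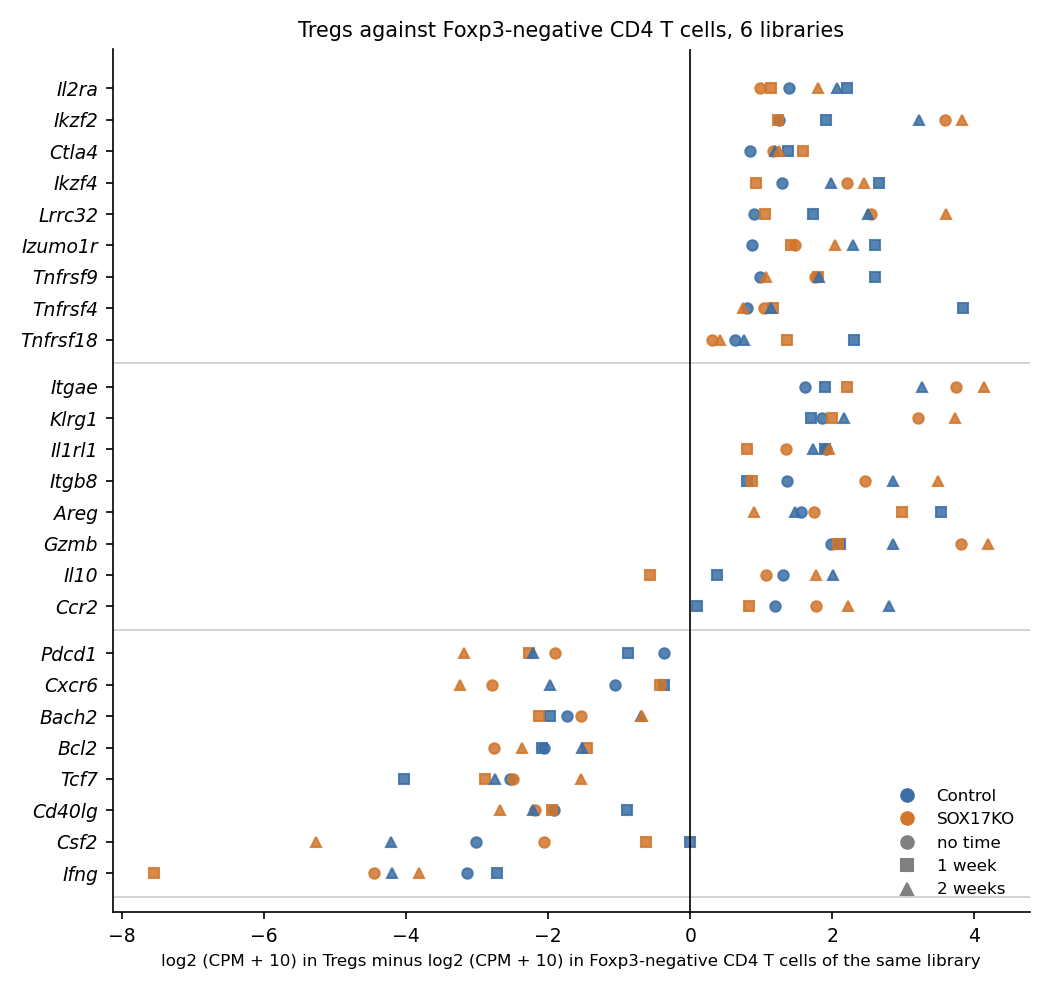
Difference between Tregs and Foxp3-negative CD4 T cells of the same library, as log2 of CPM with 10 added, for named genes. Each point is 1 library, its colour the genotype and its shape the collection; 0 means equal levels. Ikzf2, Il2ra, Ctla4, Itgae and Klrg1 lie above 0 in all 6 libraries and Ifng and Tcf7 below it, while Il10 is below 0 in the SOX17KO 1-week library and Csf2 at 0 in the Control 1-week library.

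Genes of effector and tissue Tregs were higher in part: 8 of 20 rose, 2 fell, and the median was 0.39. Itgae, the CD103 integrin that binds epithelial E-cadherin, had 232 and 180 CPM in untimed, 141 and 111 in 1-week and 204 and 301 in 2-week Tregs. The Foxp3-negative cells had 69.5, 4.26, 30.5, 16.3, 12.4 and 7.75 CPM (log2 difference 3.44, SE 0.45, edgeR adjusted p = 0.000888). Klrg1, a receptor of terminally differentiated lymphocytes that also binds cadherins, had 106 to 172 CPM in Tregs and 3.58 to 40.2 in the comparison cells, with no overlap (edgeR adjusted p = 0.000736). Il1rl1 was higher by 1.75, the costimulatory receptors Tnfrsf9, Icos and Tnfrsf1b by 1.62, 0.86 and 0.80, and the transcription factor Maf by 0.83, each higher in 6 of 6 libraries. Pdcd1, the inhibitory receptor PD-1, was lower in Tregs by 1.93 on the log2 scale, and the transcription factor Bhlhe40 by 1.51, both lower in 6 of 6 libraries (edgeR adjusted p = 0.0108 and 0.00381).

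Among suppressive mediators 5 of 12 rose and 1 fell, with a median of 0.63. Gzmb, the serine protease granzyme B, was at 209 and 480 CPM in untimed, 2806 and 3539 in 1-week and 941 and 1176 in 2-week Tregs. The Foxp3-negative cells held 45.6, 24.9, 641, 829, 122 and 54.8 CPM (log2 difference 2.90, SE 0.30, edgeR adjusted p = 0.000211). Areg, the epidermal growth factor receptor ligand amphiregulin, was higher by 1.87 and Itgb8, whose integrin activates TGF-beta, by 2.37. Il10 was higher by 1.47 (SE 0.25, edgeR adjusted p = 0.00418), in 5 of 6 libraries. Penk, the enkephalin precursor, was lower (edgeR adjusted p = 0.00902), with 554 UMIs in Tregs, of them 534 in the untimed Control library, and 2084 in Foxp3-negative cells. Tgfb1 and Ebi3 differed by -0.03 and 0.05 and did not pass the test.

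Helper cytokines and their relatives were lower in Tregs. Of 10 tested genes 9 were lower and the median log2 difference was -4.11, also with Il5, at 0 in every Treg sum, set at its bound. Ifng, the main cytokine of type 1 help, had 14.7, 8.58, 5.42, 33.4, 26.4 and 29.8 CPM in Tregs of the 6 libraries, against 208, 396, 91.6, 8088, 662 and 553 in Foxp3-negative cells (log2 difference -4.98, SE 0.42, edgeR adjusted p = 5.71e-05). Csf2, the myeloid growth factor GM-CSF, had 35 UMIs in all Tregs and 1856 in Foxp3-negative cells. Il5, a type 2 cytokine, had 0 of 4403038 Treg UMIs and 338 UMIs in the comparison cells, at least 54.6-fold lower in Tregs by a floor of 3 counts over the group. Il13 and Il4, made by the same helper type, had 2 and 4 UMIs in Tregs and 791 and 460 in Foxp3-negative cells. Cd40lg and Tnfsf11, ligands of the TNF family that T helper cells display, were lower by 2.55 and 2.93 on the log2 scale. The 4 cytotoxic and natural killer genes Nkg7, Klrd1, Klrc1 and Gzma were also lower.

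Genes of resting T cells and of position differed as well. Tcf7, a factor of naive and memory T cells, had 69 UMIs in all Tregs and 885 in Foxp3-negative cells, with 0 in the Control Treg sums at 1 and 2 weeks (edgeR adjusted p = 0.000211). Bcl2, which keeps resting lymphocytes alive, and Bach2, a repressor of effector genes, were lower by 2.23 and 1.48. Of 18 receptors of homing, Ccr2, Itgb7 and Itgae rose, by 1.55, 1.40 and 3.44, and Itga4, Itgb1 and Cxcr6 fell by 0.91, 1.32 and 1.90. Genes that answer interferon were higher in part: 3 of 22 in the type I interferon list, Isg20 and Ifi27l2a among them, and 5 of 17 among the interferon-inducible GTPases (Gbp3, Gbp6, Igtp, Irgm2 and Iigp1) rose and none fell. The mitochondrial genes mt-Nd1 and mt-Atp6 were lower by 0.37 and 0.28, and Ighm, a B cell gene, was higher by 1.94 in Tregs; the part of these in the other differences was not tested.

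The Tregs were then divided by markers of colon Treg subsets, each barcode thinned to 1000 UMIs (453, 29, 26, 29, 115 and 56 Tregs in the order untimed, 1-week and 2-week, Control before SOX17KO). Ikzf2 was read in most Tregs of every library, in 88.3%, 82.8%, 88.5%, 65.5%, 89.6% and 89.3%. The lowest share, in the SOX17KO 1-week library, was 19 of 29 cells with an exact 95% interval of 45.7% to 82.1%. Gata3 was read in 25.8% of all Tregs, Itgae in 20.5%, Il1rl1 in 16.8% and Klrg1 in 15.7%, against 0.781%, 0.260%, 0% and 0.130% of B cells. The proliferation marker Mki67 was read in 7.49% and the chemokine receptor Ccr8 in 34 of 708. By library, in the order above, Gata3 was read in 28.7%, 27.6%, 15.4%, 17.2%, 20.0% and 23.2% of Tregs. Foxp3-negative CD4 T cells had 18.5%, 20.2%, 13.6%, 22.7%, 19.9% and 24.1%, so Gata3 did not set Tregs apart in every library. Itgae at 1 week was read in 7.69% and 6.90% of Tregs and 9.09% of Foxp3-negative cells in both libraries. Il1rl1 and Klrg1 were read more often in Tregs in every library.

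**Figure D3:**
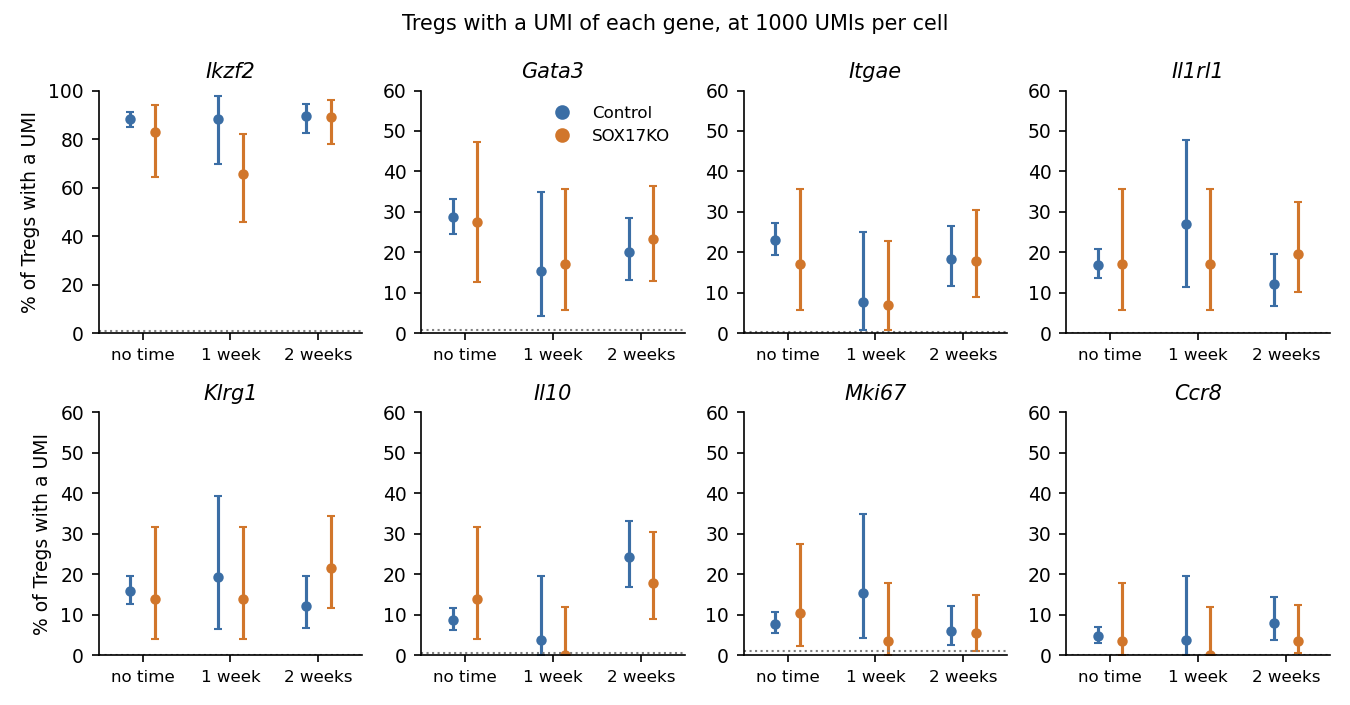
Share of Tregs with a UMI of each of 8 subset markers after thinning to 1000 UMIs, in percent, by library. Bars are exact 95% intervals for counting error and the dotted line is the share in B cells; the Ikzf2 panel runs to 100% and the others to 60%. Ikzf2 is read in 65.5% to 89.6% of Tregs, and Il10 in 24.3% and 17.9% at 2 weeks against 3.85% and 0% at 1 week.

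Between genotypes the subset shares did not separate. The mean difference, SOX17KO minus Control, was -9.59 ± 11.9 percentage points for Ikzf2, -2.38 ± 3.09 for Itgae and -3.10 ± 1.67 for Ccr8 (SD, n = 3), each with the same sign in all 3 pairs and an exact sign-flip permutation p of 0.25, the smallest possible (0.625 adjusted over the 10 genes tested, of which 8 are reported). Gata3, Il1rl1, Klrg1, Il10 and Mki67 changed sign between pairs. Markers also met in the same cells, which is given as a description only. Il1rl1 was read in 27.3% of Tregs with a Gata3 UMI and 13.1% of those without. Lag3, an inhibitory receptor, was read in 20.7% of Tregs with an Il10 UMI and 3.51% of those without. Ikzf2 was read in 78.0% of Tregs with Il10 and 88.7% of those without.

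The Tregs of the 1-week and 2-week libraries were compared next, in the fit that holds genotype and collection. At 2 weeks they had more Il10, Lag3, Itgb8 and Itga4, and less Gzmb, Lgals1, S100a4 and Isg15. Of 5412 genes 34 were higher and 89 lower at 2 weeks by edgeR's test, 2.27% of those tested, and with mixed barcodes left out 87 were higher and 149 lower of 4422, 5.34%. Without the SOX17KO 2-week library the count for all Tregs was 35. With mixed barcodes left out, the 236 became 18 without Control 1 week, 92 without SOX17KO 1 week, 98 without Control 2 weeks and 77 without SOX17KO 2 weeks. Each time is 1 library per genotype, so time and any batch of collection cannot be told apart, and the 1-week values rest on 26 and 29 cells.

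Il10 (chr1:131019845-131024974, plus strand) had 10.8 and 44.5 CPM in Control and SOX17KO Tregs at 1 week and 499 and 333 at 2 weeks, with 117 and 146 in the untimed pair. Both 2-week libraries were above all others. The log2 change from 1 to 2 weeks was 3.75 (SE 0.49, edgeR adjusted p = 0.00425), and 3.59 with mixed barcodes left out. Lag3 had 5.42 and 11.1 CPM at 1 week, from 1 and 2 UMIs, and 185 and 119 at 2 weeks (edgeR adjusted p = 0.00565), and its log2 change was 4.27 with mixed barcodes left out. Itgb8 was at 103 and 117 CPM at 1 week and 481 and 469 at 2 weeks, a rise of 1.94. Itga4, the alpha-4 integrin chain that pairs with Itgb7 for homing to the gut, was at 81.3 and 50.1 CPM at 1 week and 389 and 374 at 2 weeks, a rise of 2.45. In B cells Il10 stayed at 0 to 12.1 CPM and Itgb8 at 0 to 14.7 CPM in every library. Both were below their 2-week levels in Tregs. Itga4 was at 330 and 459 CPM in B cells at 1 week and 749 and 617 at 2 weeks. Foxp3-negative CD4 T cells, thinned, had Itga4 in 9.09% and 27.3% of Control and SOX17KO barcodes at 1 week. At 2 weeks these shares were 46.9% and 40.5%. Lag3 was read there in 0% and 0%, then 19.4% and 18.1%. Itgb8 was read in 0% and 4.55%, then 6.88% and 2.16%, and Il10 in 0% and 4.55%, then 6.14% and 3.88%.

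Other genes higher at 2 weeks were Smyd3, a methyltransferase (2.79), the signalling genes Inpp4b (1.77), Cblb (1.60) and Prkch (1.35), the nuclear receptor cofactor Nrip1 (2.31), and the interleukin-7 receptor Il7r (1.52). Smyd3 and Inpp4b also stood at lower CPM at 1 week than at 2 weeks in the Foxp3-negative cells, with 85.5 and 75.9 against 328 and 397 for Smyd3. The chemokine Ccl4 rose by 2.55, and 52.0% and 74.3% of its 2-week UMIs in Control and SOX17KO came from 1 barcode each.

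Genes lower at 2 weeks led with Isg15, a ubiquitin-like protein made in response to interferon (chr4:156199424-156200818, minus strand). It had 450 and 328 CPM in Control and SOX17KO Tregs at 1 week, 72.2 and 29.8 at 2 weeks, and 110 and 68.6 in the untimed pair. The 1-week libraries were above all others. The log2 change was -3.12 (SE 0.32, edgeR adjusted p = 0.0017), and -3.91 with mixed barcodes left out. Of the type I interferon list, 0 of 18 tested genes had a higher estimate at 2 weeks and 3 passed the test, Isg15, Zbp1 (-1.49) and Bst2 (-1.38), with a median of -1.35 against 0.01 for all genes tested. With mixed barcodes left out 13 could be tested, 4 were lower by the test (Isg15, Zbp1, Isg20 and Ifi27l2a), and Bst2 no longer passed (edgeR adjusted p = 0.0951). Isg15 was also higher at 1 week in other cells: in B cells it had 183 and 50.3 CPM at 1 week against 0 and 1.57 at 2 weeks, and in barcodes with Csf1r 741 and 410 against 206 and 127.

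The starts of Isg15 and Bst2 are printed because interferon-stimulated response elements, the sites of the factor complex that interferon activates, lie there. Each line runs from 250 bases before to 50 bases after the RefSeq start on GRCm38.p6 (Isg15 chr4:156200769-156201068 and Bst2 chr8:71537423-71537722, both minus strand). Capitals mark the letters covered by the motif GAAA, any 2 bases, GAAA, searched on both strands, whose matches overlap.
Isg15: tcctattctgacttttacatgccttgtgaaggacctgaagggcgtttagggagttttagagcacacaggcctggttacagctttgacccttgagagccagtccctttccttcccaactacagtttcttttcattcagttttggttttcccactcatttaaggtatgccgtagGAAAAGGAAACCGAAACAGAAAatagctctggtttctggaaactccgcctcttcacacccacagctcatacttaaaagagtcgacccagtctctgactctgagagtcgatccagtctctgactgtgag
Bst2: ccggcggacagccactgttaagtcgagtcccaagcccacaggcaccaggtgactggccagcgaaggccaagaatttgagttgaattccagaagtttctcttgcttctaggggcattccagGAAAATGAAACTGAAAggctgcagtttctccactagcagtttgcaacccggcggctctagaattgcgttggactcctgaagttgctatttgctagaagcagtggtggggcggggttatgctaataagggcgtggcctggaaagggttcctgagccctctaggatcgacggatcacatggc
Isg15 had 3 overlapping matches, starting 78, 72 and 66 bases before the start, and Bst2 2, at 130 and 124 bases. The motif was in 1131 of 32851 RefSeq promoters of this length (3.44%), and in 12 of the 19 genes of the interferon list that have one in the table. A match is a description of these letters and does not show that a factor was bound.

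Gzmb was lower at 2 weeks by a log2 change of -1.75 (SE 0.25, edgeR adjusted p = 0.00706), from 2806 and 3539 CPM to 941 and 1176, while the untimed Tregs had 209 and 480. Lgals1, the lectin galectin-1, fell by 1.71 from 2519 and 3099 CPM to 997 and 916, and the calcium-binding protein S100a4 by 1.90 from 4599.8 and 3366 CPM to 1036 and 1482. The costimulatory receptor Tnfrsf4 fell by 1.16. Of 12 genes of lipid handling and oxidative phosphorylation, 4 fell: Fabp5 (-1.73), Ndufa4 (-1.22), Atp5b (-1.26) and Atp5g1 (-1.31). Gbp2, an interferon-inducible GTPase, fell by 2.07 and was the 1 gene called of 17 in its list, of which 4 had a higher and 13 a lower estimate (median -0.55). The summed level of that list was 3614 and 4329 CPM at 1 week and 3729 and 3685 at 2 weeks. The immunoproteasome subunit Psmb8 fell by 1.44, the 1 gene called of 20 for MHC class I presentation (7 higher and 13 lower, median -0.24). Markers of other cells moved the same way, with Apoe, Il1b, S100a9 and Dcn lower at 2 weeks; the summed neutrophil list was at 1430 and 796 CPM at 1 week and 298 and 152 at 2 weeks, and 31.3, 43.5, 28.7 and 3.39 CPM in the same 4 libraries with mixed barcodes left out. Isg15, Gzmb, Lgals1 and S100a4 kept their calls with mixed barcodes left out, at -3.91 for Isg15, -2.03 for Gzmb and -2.25 for S100a4 (edgeR adjusted p = 1.53e-06, 2.89e-06 and 2.23e-06).

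**Figure D4:**
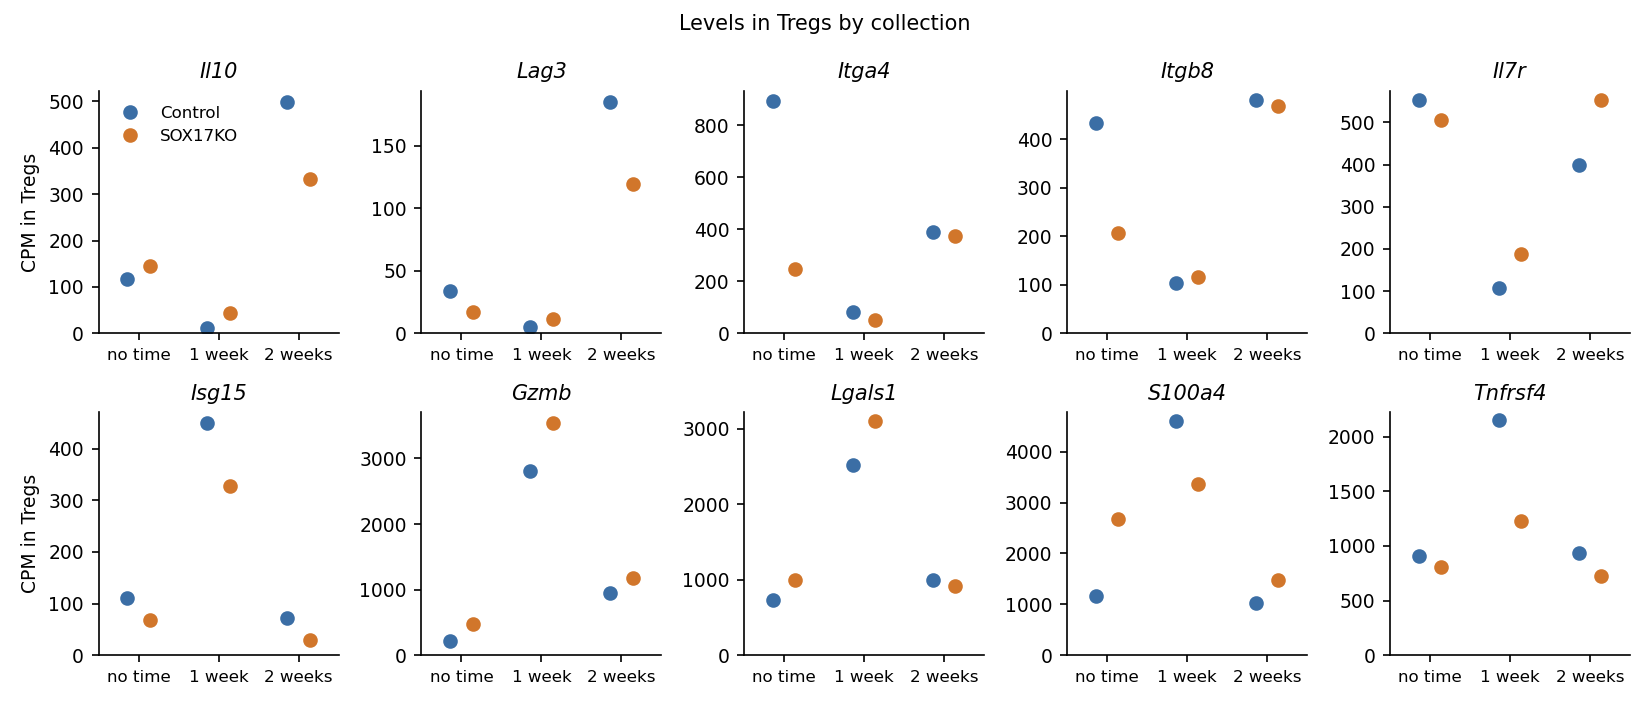
CPM of named genes in the summed Tregs of each library, by collection (the untimed pair is marked no time), on linear axes that start at 0. Points are single libraries coloured by genotype. Il10 and Lag3 are highest in both 2-week libraries, and Isg15, Gzmb, Lgals1 and S100a4 in both 1-week libraries.

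Whether these changes differed from those in Foxp3-negative CD4 T cells was tested with an interaction term, added after the data were seen. It called 38 of 8060 genes, 0.471%. Itgb8 rose more in Tregs (difference of log2 changes 2.45, SE 0.48, edgeR adjusted p = 0.0445). The change of Il10 (2.21, edgeR adjusted p = 0.178), Isg15 (0.79, edgeR adjusted p = 0.673) and Lag3 (0.74, edgeR adjusted p = 0.879) was not shown to differ between the classes. The change of Itga4 was not shown to differ either (0.49, edgeR adjusted p = 0.793). The 1-week Foxp3-negative sums hold 22 cells each. With mixed barcodes left out they hold 12 Control and 17 SOX17KO cells, and the interaction test called 35 of 6933 genes. Gzmb was among these with a positive difference, so its fall was smaller in Tregs than in Foxp3-negative cells.

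The last comparison, SOX17KO against Control, found few genes in the Tregs. Fewer transcripts of the chemokine Ccl4, the histone H2afz, the Myc relative Bmyc and Cep85l were read in SOX17KO, while the genes of Treg identity and function did not pass the test. Of 5412 genes 26 were higher and 9 lower by edgeR's test with the collection as a block, 0.647%. With mixed barcodes left out 2 were higher and 8 lower of 4422, 0.226%. The count for all Tregs was 97 without the untimed pair, 11 without the 1-week pair and 6 without the 2-week pair, and 0 of 4779 without the collection term (138 at an unadjusted p under 0.05, lowest adjusted p 0.9). With mixed barcodes left out it was 1 to 3 when a pair was left out.

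The matrix genes called higher came from few barcodes. Col1a1, Col1a2, Col3a1 and Sparc, genes of the fibroblast matrix, had 16 and 0 UMIs in untimed Control and SOX17KO Tregs, 23 and 1362 at 1 week and 4 and 1450 at 2 weeks. All of the 1362 lay in 3 barcodes and all of the 1450 in 2, every one a mixed barcode, with 9282 to 28559 UMIs, and none in the share removed by the doublet score. With mixed barcodes left out Col1a1 had 5, 0, 2, 0, 1 and 0 UMIs. The genes then called higher were Crip1, a small zinc-binding protein, and Nav2. Crip1 had 576 and 2513 CPM in the untimed, 2476 and 2548 in the 1-week and 978 and 2181 in the 2-week Control and SOX17KO Tregs, with a 1-week log2 ratio of 0.04 whose exact 95% counting interval ran from -0.15 to 0.23. Its log2 difference with mixed barcodes left out was 1.10 (SE 0.23, edgeR adjusted p = 0.0286). For all Tregs the difference was 1.11 and missed the threshold (edgeR adjusted p = 0.236). By CPM, Crip1 was higher in SOX17KO in all 3 pairs also in B cells, at 208 and 486, 1100 and 4475, and 181 and 478. The share of thinned barcodes with Crip1 went the other way at 1 week. It was 34.6% of 26 Control and 15.4% of 26 SOX17KO B cells, and 92.3% and 79.3% of Tregs. In the untimed and 2-week pairs it was higher in SOX17KO. B cells had 17.3% and 21.3%, then 31.6% and 32.9%. Tregs had 35.1% and 44.8%, then 51.3% and 73.2%.

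Ccl4, a chemokine that draws other immune cells, was the gene called lower with the smallest p once mixed barcodes were left out. It had 279 and 34.3 CPM in untimed, 200 and 11.1 in 1-week and 840 and 295 in 2-week Control and SOX17KO Tregs, lower in SOX17KO in all 3 pairs. The log2 difference was -2.18 (SE 0.36, edgeR adjusted p = 0.0207), and -3.71 (SE 0.43, edgeR adjusted p = 2.85e-05) with mixed barcodes left out. Few cells carried it: in SOX17KO it was read in 1, 2 and 6 Tregs of the untimed, 1-week and 2-week libraries, and in Control in 95, 4 and 32. At 2 weeks 1 barcode held 52.0% of the Control UMIs and 1 held 74.3% of the SOX17KO UMIs. Mixed barcodes held 65 Control and 95 SOX17KO UMIs there. The part of these barcodes in the larger difference without mixed barcodes was not tested. The 1-week pair rested on mixed barcodes, with 37 and 2 UMIs in all Tregs but 1 and 1 without them, so the difference there was not detectable at this depth.

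H2afz, a histone variant, had 1882 and 798 CPM in untimed, 1317 and 673 in 1-week and 1265 and 639 in 2-week Control and SOX17KO Tregs. It was lower in SOX17KO in every pair, with log2 ratios of -1.24, -0.97 and -0.98 and exact 95% counting intervals below 0. The fitted difference was -1.06 (SE 0.18, edgeR adjusted p = 0.0227), and it was called with mixed barcodes left out too (edgeR adjusted p = 0.0144). Bmyc (chr2:25706739-25707721, plus strand) had 286 and 77.2 CPM in the untimed pair, 37.9 and 16.7 from 7 and 3 UMIs at 1 week, and 102 and 29.8 at 2 weeks. Its difference was -1.74 (SE 0.31, edgeR adjusted p = 0.03), and -2.05 with mixed barcodes left out. Cep85l, a centrosomal protein, was at 281 and 51.5, 141 and 38.9, and 213 and 81.3 CPM (-1.78, SE 0.30, edgeR adjusted p = 0.0219, and -1.82 without mixed barcodes). These 4 genes were called both with and without mixed barcodes. Other ways of processing often ended the calls. Of the alternatives that tested each gene, Ccl4 was called in 14 of 18, H2afz in 9 of 19, Bmyc in 6 of 15 and Cep85l in 10 of 18. All of these alternatives kept the direction.

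Calls of other genes ended when mixed barcodes were left out. Pkp4, a junction protein of the plakophilin family, differed by -1.77 (edgeR adjusted p = 0.0247) and then -1.68 (edgeR adjusted p = 0.0503). Fabp5, a fatty acid carrier, differed by -1.34 and then -0.86 (edgeR adjusted p = 0.0447 and 0.376), and Pmaip1, the apoptosis gene Noxa, by -1.53 and then -0.95 (edgeR adjusted p = 0.0337 and 0.431). Arg1 and Pkib, also called lower, had 75.5% and 81.8% of their Control 1-week UMIs in 1 barcode. Called lower only without mixed barcodes were Plac8, Srgap3 and Plek, lower by 2.23, 2.55 and 1.89 on the log2 scale, and Cd74, whose list was used to define the mixed barcodes and which is no finding.

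**Figure D5:**
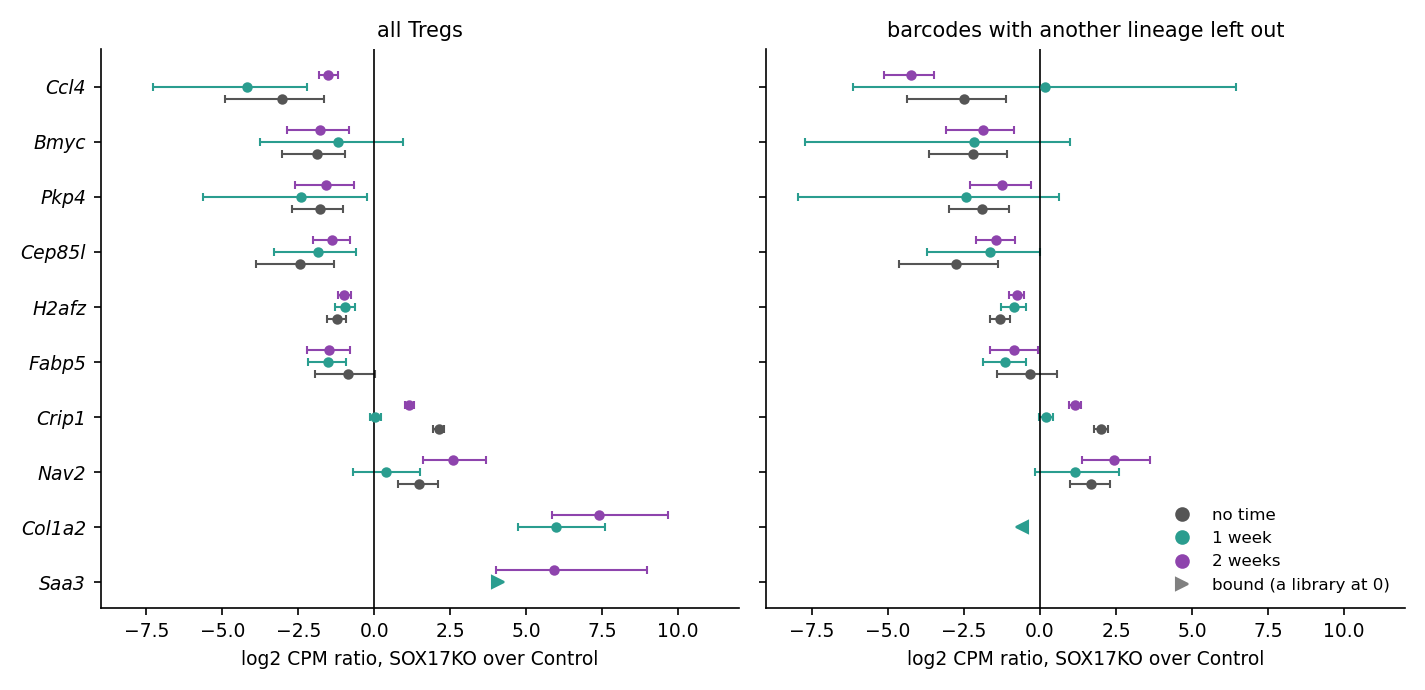
Log2 ratio of CPM, SOX17KO over Control, for named genes in each pair of libraries, for all Tregs and with mixed barcodes left out. Bars are exact conditional 95% intervals for counting error, and triangles mark bounds where 1 library had 0 UMIs. Col1a2 reaches 7.39 at 2 weeks with all Tregs and is an upper bound or not drawn without the mixed barcodes, titled there as barcodes with another lineage, while H2afz stays between -0.77 and -1.30 in the 3 pairs.

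Within Tregs no list of their function held a gene that passed the genotype test apart from Fabp5 among the lipid genes. The identity list had 2 of 10 genes with a higher and 8 with a lower estimate (median -0.35), the effector list 7 and 13 of 20 (-0.16) and the suppressive list 4 and 6 of 10 (-0.15), against a median of 0.00 over all genes tested. Ikzf2 and Ctla4 were among those whose groups overlapped, and the fitted difference of Ctla4 was -0.04 (SE 0.18). The interferon list had a median of -0.32, MHC class I presentation had 18 of 20 genes with a lower estimate and a median of -0.24, and proliferation genes had a median of -0.68, with no gene of the 3 lists called. The heat-shock genes that tissue digestion can raise had a lower estimate in 9 of 10, median -0.30; the part of this in the other differences was not tested. An interaction test of whether the genotype difference in Tregs differed from that in Foxp3-negative CD4 T cells called 2 of 8060 genes for all Tregs (0.0248%), Saa3 and Arg1, and 9 of 6933 with mixed barcodes left out (0.13%). In the latter Ccl3, Nav2, Gzmb and Lrig1 had a higher difference in Tregs (2.49, 2.42, 1.29 and 1.83) and Ccl4, Ero1l, Plac8, Zeb2 and Rbpj a lower one (-2.87, -1.93, -2.16, -1.83 and -1.34), with an edgeR adjusted p from 9.69e-05 for Ccl4 to 0.0344 for Lrig1 and Rbpj. Its 1-week Foxp3-negative sums hold 12 Control and 17 SOX17KO cells. Ccl3 was read in 54, 0 and 8 Control and 2, 1 and 4 SOX17KO Tregs (untimed, 1 week and 2 weeks). Of its SOX17KO 2-week UMIs 76.7% lay in 1 barcode. The Saa3 UMIs of SOX17KO Tregs, 49 at 1 week and 78 at 2 weeks, each lay in 1 mixed barcode, and 75.5% to 100% of the Arg1 UMIs of a library with any lay in 1 barcode. For H2afz, Bmyc and Cep85l this difference was -0.42, -0.06 and -1.14 and did not pass the test (edgeR adjusted p = 1 for each).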

How the data were processed

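Filtered UMI count matrices were deposited by the authors for 6 libraries made with a droplet 3' kit. The submitters' processing notes name Cell Ranger 6.0.1 and the build mm10, while the matrix headers name version 7.0.1; no doublet removal is stated. Tregs were taken by the stated count rule, and the members and all 25 gene lists were chosen with earlier results of these data known. Counts were summed per library and class and tested with edgeR 4.0.16 (quasi-likelihood, TMM, expression filter, Benjamini-Hochberg adjusted p of 0.05), with collection and genotype as terms or, between classes, library as a block. Samples with the same collection label were paired, since each label names 1 Control and 1 SOX17KO library, and the fit without this term is an alternative. P-values measure only the spread between these pooled libraries, and intervals and floors (3 counts) cover counting error only. The fits were tested on simulated counts with known changes, whose outcome is not reported here. These counts had the same spread for every gene and no difference between collections beyond the added changes. They did not mimic genes carried by few barcodes, so they do not bear on such calls. Named genes are the called ones, up to 15 per direction by p, with list members that were called or among the 4 highest in mean CPM, and the 4 markers; T cell receptor, immunoglobulin, mitochondrial and ribosomal protein genes are left out of the naming except as list members. Promoters come from RefSeq, positions from GENCODE M21. DESeq2 1.42.0 and limma 3.58.1 were alternatives. Results for some genes are not reported here.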

Additional observations from a re-analysis of the deposited data

Results flagged for a closer look

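The genotype difference in the Treg share of Cd3 barcodes pointed in opposite directions in 2 collections, with a log2 odds difference of -4.37 in the untimed and 0.43 in the 2-week pair; the difference between collections was not tested.

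For 8 of the named genes, the change from 1 to 2 weeks differed between Tregs and Foxp3-negative CD4 T cells by the edgeR interaction test, both with and without mixed barcodes. Each value is the log2 change in Tregs minus that in the other class, with mixed barcodes kept. It was positive for the chemokines Ccl3 (8.50) and Ccl4 (4.26), for Itgb8 (2.45), Ccr2 (2.04) and Satb1 (1.43), and negative for Cxcr6 (-2.55), Areg (-2.29) and S100a4 (-1.32). Ccl3 had 0 and 1 UMIs in 1-week Tregs, so its fitted value depends on the prior count. In the 1-week SOX17KO library the 22 Foxp3-negative cells had 2456 CPM of Ccl3 and 5665 CPM of Ccl4.

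Foxp3 was also read in barcodes that the rule leaves out for a Cd8a or Cd8b1 UMI. Among barcodes with Cd3 and Cd8 UMIs and 0 of Cd4, they were 7.34% in the untimed Control library (115 of 1566), 0.878% in the untimed SOX17KO (31 of 3531), 0.824% in the Control 2-week (10 of 1213) and 0.568% in the SOX17KO 2-week library (2 of 352). In the untimed Control library these 115 barcodes had a median of 13589 UMIs, against 5782.5 for all 1566, 97.4% had an Ikzf2 UMI, their median was 7 Cd8 UMIs, and 16 were in the share removed by the doublet score.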

How the results depend on the processing

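The mean log2 odds difference in Treg share over the 3 pairs stayed below 0 under each alternative rule. Without the untimed pair that of Cd3 barcodes was above 0 under each rule. It was 0.06 under the main rule and at most 0.49, with barcodes thinned before the rule. Over all barcodes with a pair left out, the mean ran from -2.19 to -0.33 under the main rule. It ran from -2.50 to -0.02 when a Cd4 UMI was required. Of the tests across genes, the genotype count (35) was 154 with no low-count filter, 14 with DESeq2, 10 with at least 2 Foxp3 UMIs, 10 with mixed barcodes left out (9 with limma-voom and 1 with DESeq2), 0 with barcodes thinned before the rule (4 libraries and 575 genes; 46 at an unadjusted p under 0.05), and 6 to 97 with a pair left out (1 to 3 without mixed barcodes). Without the replicate block, that is the pairing by collection, it was 0. The 1 to 2 week count (123) was 352 with no filter, 455 with limma-voom, 26 with 2 Foxp3 UMIs, 201 without doublets, 236 without mixed barcodes (518 with limma-voom), and 35 to 169 with a library left out (18 to 98 without mixed barcodes, 77 without SOX17KO 2 weeks). The count of Tregs against Foxp3-negative CD4 T cells (495) was 839 with no filter, 857 with limma-voom, 152 without the replicate block by library, and 267 to 533 with a library left out. Of 10 subset markers, 4 had the same sign in all pairs, 0 when a Cd4 UMI was required, 2 with barcodes thinned before the rule, 1 unthinned, and 5 to 7 with a pair left out. Among single genes with a test no direction turned. Of the values for single genes and differences between classes, 143 lost their call, 14 gained one, 833 stayed and 14 without a test of their own moved beyond the spread. The mean differences in the share of Tregs with Ikzf2 and Ccr8 turned to 4.94 and 1.13 percentage points with barcodes thinned before the rule. The cause of these shifts was not tested. Leaving out mixed barcodes, the interaction tests, and for the time comparison the left-out libraries, DESeq2, 2 Foxp3 UMIs, the 5% mitochondrial maximum and doublets were chosen after the data were seen. Depth limits the SOX17KO untimed and both 1-week libraries most, with 29, 26 and 29 Tregs and 116613, 184575 and 179734 UMIs.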
